A study of Mus musculus with 22 samples.

Results

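The Hedgehog pathway of the developing mouse trachea was followed here through 9 genes. They were the ligand gene Shh, the receptor gene Ptch1, the transducer gene Smo, the ligand-binding inhibitor gene Hhip, the transcription factor genes Gli1, Gli2 and Gli3, and the forkhead genes Foxf1 and Foxf2. The members were picked by gene symbol, and the counts of all entries with the same symbol were summed. All 9 were found among the 26202 symbols of the count table, Ptch1 under 2 entries and each of the others under 1. Levels are given as CPM, counts per 1000000 counts of a library after edgeR's TMM scaling over the 18 libraries used.

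The study sequenced RNA from E11.5 tracheas and from cells sorted out of E13.5 tracheas of mouse embryos. At E11.5 it compared Wnt5a f/f tracheas (5 libraries) with Dermo1Cre;Wnt5a f/f tracheas (4 libraries), in which Cre expressed from the Dermo1 (Twist2) locus in the mesenchyme recombines both floxed Wnt5a alleles. Each E11.5 sample pooled 5 tracheas and held epithelium and mesenchyme together. At E13.5, cells of embryos carrying γSMAeGFP, a green fluorescent reporter of gamma smooth muscle actin, were divided by an EpCAM stain into epithelium, by GFP into muscle, and into cells negative for both, which the study called chondroblasts. Columns for 2 epithelial, 2 muscle and 2 control chondroblast libraries were used, with 3 Notum mutant chondroblast libraries (A, B and C) labelled Notum 150/150; gamma SMA eGFP. Mutants B and C carry the same number in their columns and A another, and what it marks is not given in the sources used here, so that these libraries may not be independent. The labels give the E13.5 control samples as Bmp4 f/f; gamma SMA eGFP or, for 1 of the 3 samples listed for each population, as Notum 300/300; gamma SMA eGFP, and no column could be tied to either genotype. No Cre is named for the Bmp4 f/f embryos. The double-negative gate holds every cell without EpCAM and GFP, and so is a model of chondroblasts only as far as its markers show.

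Hedgehog proteins are secreted ligands. In the absence of ligand, the receptor Ptch1 keeps the membrane protein Smo inactive at the primary cilium, and Gli3 is cut to a repressor. When ligand binds Ptch1, Smo is released and full-length Gli2 and Gli3 act as activators. Gli1, Ptch1 and Hhip are classical targets of the pathway, so that they serve as readouts of the response, and Ptch1 and Hhip in turn hold back the ligand. In the foregut and its derivatives Shh is made by the endodermal epithelium and acts on the mesenchyme around it. Foxf1 and Foxf2 are forkhead factor genes of splanchnic mesenchyme whose expression depends on Hedgehog input in several organs, and Shh is needed for tracheal cartilage rings.

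On GRCm38.p6, the mm10 assembly, Shh lies on chr5:28456840-28467101, Ptch1 on chr13:63508328-63573460, Smo on chr6:29735497-29761366 and Hhip on chr8:79965850-80058060. Gli1 is on chr10:127329882-127341579, Gli2 on chr1:118834061-119054405 and Gli3 on chr13:15463723-15730026. Foxf1 is on chr8:121084386-121088154 and Foxf2 on chr13:31625816-31631406. All 9 are protein-coding, and each value below is a total over the gene rather than over an exon. The promoters of the 2 feedback inhibitors are shown because Hhip and Ptch1 bind the same ligand and, as the values below show, were distributed differently over the sorted cells. Each stretch precedes a RefSeq start (GRCm38.p6, minus strand of the chromosome), with CG pairs in capitals. For Hhip it is the 198 bases outside the gene span just given (chr8:80058061-80058258). For Ptch1 it is the 250 bases before a start that lies inside the span (chr13:63565736-63565985), 7475 bases from the span's outer end, so that it does not precede the outermost start of the gene.
Hhip: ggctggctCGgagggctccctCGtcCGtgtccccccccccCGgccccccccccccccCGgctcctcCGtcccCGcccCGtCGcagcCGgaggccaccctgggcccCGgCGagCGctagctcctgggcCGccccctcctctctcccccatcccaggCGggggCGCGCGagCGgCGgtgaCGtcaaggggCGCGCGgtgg
Ptch1: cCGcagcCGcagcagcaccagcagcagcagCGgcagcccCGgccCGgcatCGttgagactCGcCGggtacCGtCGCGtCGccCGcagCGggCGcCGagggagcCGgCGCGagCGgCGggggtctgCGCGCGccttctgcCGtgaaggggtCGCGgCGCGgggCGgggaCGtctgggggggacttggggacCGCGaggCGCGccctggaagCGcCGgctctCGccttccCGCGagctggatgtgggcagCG
The Hhip stretch holds 24 CG pairs in 198 bases and the Ptch1 stretch 41 in 250. Promoters of 6 members (Ptch1, Smo, Hhip, Gli2, Gli3 and Foxf2) were matched by symbol, and in windows of 300 bases that run on 50 bases past the start, G and C made up 67.3% to 76.3%, against a median of 52.7% over 32851 windows. The letters CCACCCA, the core of the Gli site, searched on both strands, were in none of these 6 windows and in 9.30% of all windows.

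The 18 libraries held 6880660 to 21678177 counts, so that 3 counts, the limit that a count of 0 allows, corresponded to 0.138 to 0.436 CPM. In each sort the markers of its own population were higher than in the other sorts: 8 epithelial markers summed to 3510 and 4116 CPM in epithelium and to 16.8 to 45.3 CPM in the other sorts, 7 smooth muscle markers to 11043 and 14167 CPM in muscle, and 7 chondroblast markers to 2389 to 4075 CPM in chondroblasts against 869 and 1810 CPM in muscle. Markers of other cells also differed within sorts, with the blood and macrophage list at 37539 CPM in the control chondroblast library of the earlier date against 5515 CPM in that of the later date. The targeted genes did not separate the genotypes. Wnt5a was at 62.1 to 159 CPM in the Wnt5a f/f libraries and at 46.3 to 126 CPM in the Dermo1Cre;Wnt5a f/f libraries, a log2 fold change of -0.20 (SE 0.30, edgeR adjusted p = 1.00). Notum was at 13.7 and 86.0 CPM in the control chondroblasts and at 13.7 to 35.3 CPM in the Notum mutant chondroblasts. Counts over a whole gene include reads outside a deleted part, so that these levels do not check the genotype labels.

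**Figure D1:**
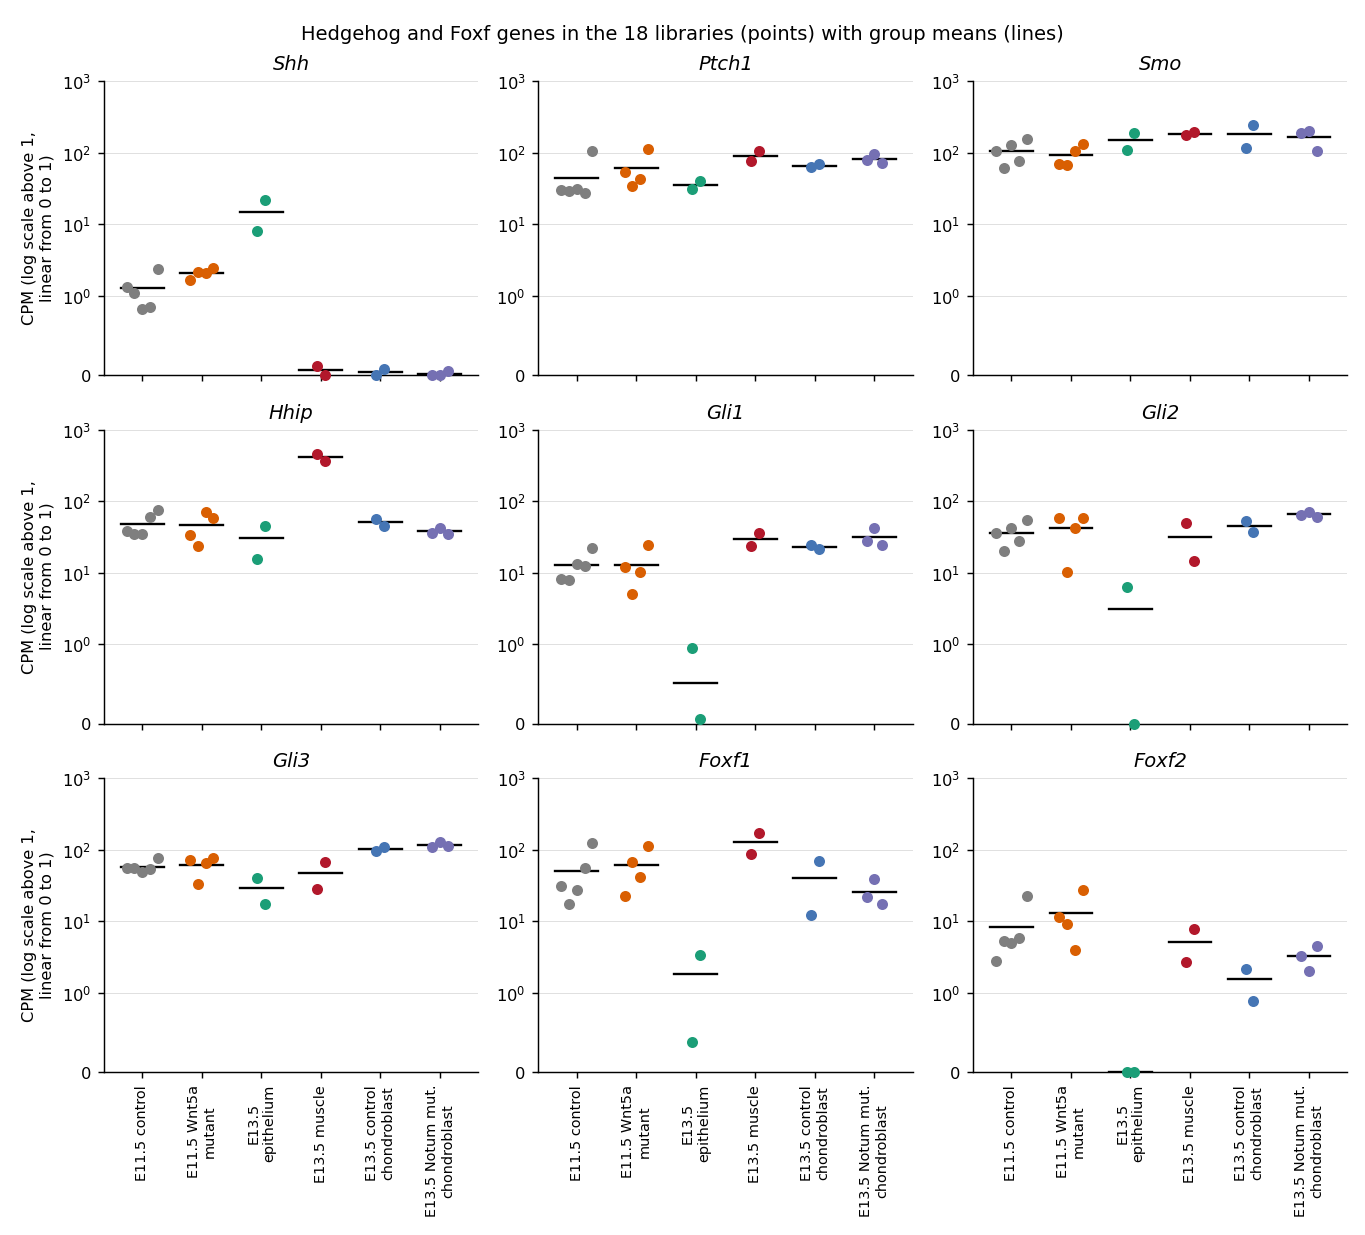
Levels of the 9 genes in CPM (vertical axes, logarithmic above 1 CPM and linear from 0 to 1) in the 18 libraries, with a point for each library and a line at the mean of each group. Shh was at 8.14 and 21.8 CPM in the epithelial libraries and under 0.2 CPM in every muscle and chondroblast library, Hhip was at 369 and 456 CPM in muscle, and Gli1, Foxf1 and Foxf2 were lowest in epithelium.

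The E13.5 control sorts show in which cells each part of the pathway was expressed. Shh, the ligand gene, was at 8.14 CPM in the earlier and 21.8 CPM in the later epithelial library. It was at 0.119 and 0 CPM in muscle, at 0 and 0.0747 CPM in control chondroblasts, and at 0, 0 and 0.0487 CPM in the Notum mutant chondroblasts. The ligand transcript was therefore measured in epithelium, and the mesenchymal values were at or under the 3-count limit. As counts, the epithelial libraries held 505 Shh counts and the 4 control mesenchymal libraries together 3, a rate ratio of 306 (95% exact interval 104 to 1489, which covers counting error only). Against the mean of muscle and chondroblasts, Shh was higher in epithelium by 8.17 on the log2 scale (SE 1.59, edgeR quasi-likelihood test, Benjamini-Hochberg adjusted p = 0.0398), a value that depends on the prior count because the mesenchymal counts are so low. This call was lost in 5 of 6 fits that each left out 1 library, all but the one without the earlier epithelial library, with log2 fold changes of 7.30 to 9.77 and adjusted p of 0.0328 to 0.161. It was also lost with the date in the column names as a block (8.03, edgeR adjusted p = 0.0817). Against muscle and against chondroblasts taken singly the log2 difference was 7.80 (SE 2.12, edgeR adjusted p = 0.117) and 8.54 (SE 2.22, adjusted p = 0.121).

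Ptch1 encodes the receptor. It was at 30.9 and 39.8 CPM in epithelium, 63.4 and 68.3 CPM in control chondroblasts, and 75.1 and 107 CPM in muscle, given in the order of the earlier and later date as for all sorted controls. The 3 ranges of 2 libraries each did not overlap, with epithelium lowest and muscle highest. The share of all genes that separate chondroblasts from muscle in this way is not given, here or for the genes below. The log2 difference of chondroblasts from muscle was -0.48 (SE 0.31, 95% interval -1.22 to 0.27). The log2 difference of epithelium from muscle was -1.36 (SE 0.32, edgeR adjusted p = 0.0814) and from chondroblasts -0.88 (SE 0.31, adjusted p = 0.235), so that neither passed the adjustment. Smo, which carries the signal from the receptor to the Gli factors, was at 110 and 187 CPM in epithelium, 176 and 192 CPM in muscle, and 114.5 and 245 CPM in control chondroblasts. These ranges overlapped in all 3 populations. The largest Smo difference was -0.31 (epithelium against muscle, 95% interval -1.29 to 0.68) and the interval was -1.25 to 0.73 for epithelium against chondroblasts and -1.03 to 0.94 for chondroblasts against muscle.

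Hhip, whose product binds and sequesters ligand at the cell surface, had the clearest difference between the populations. It was at 456 and 369 CPM in muscle, 55.4 and 45.1 CPM in control chondroblasts, and 15.4 and 44.7 CPM in epithelium. Both muscle libraries stood far above the other sorts, which nearly met one another. Hhip was lower in epithelium than in muscle by 3.78 on the log2 scale (SE 0.52, edgeR adjusted p = 0.0173). It was lower in epithelium than in the mean of muscle and chondroblasts by 2.25 (SE 0.45, edgeR adjusted p = 0.0440). Against muscle, control chondroblasts had a log2 difference of -3.05 (SE 0.50, unadjusted p = 0.000688), which did not pass over all genes (edgeR adjusted p = 0.187). That difference passed in 4 of 8 alternative settings. These were all 18 libraries in 1 fit (edgeR adjusted p = 0.00554), limma voom (adjusted p = 0.0138), DESeq2 (adjusted p = 3.76e-07) and no filter (edgeR adjusted p = 1.2e-19). In the other settings it did not pass, with adjusted p up to 0.309. With a library left out it passed in 2 of 6 fits, those without an epithelial library. The log2 fold changes of the 6 fits were -3.21 to -2.88. The call against muscle was lost without the earlier muscle library (edgeR adjusted p = 0.0824), without the later one (0.0648) and without the earlier control chondroblast library (0.0509), where the log2 fold changes were -3.61, -3.92 and -3.77. The call against the mean was lost in 4 of 6 such fits, those without a muscle or a control chondroblast library (adjusted p 0.107 to 0.132, log2 fold changes -2.32 to -2.17), and with the date as a block (-2.33, edgeR adjusted p = 0.0692). Skeletal muscle markers (Myog, Myod1 and Myf5) also differed in the same sort, with sums of 566 CPM in the earlier and 35.0 CPM in the later muscle library against 0.195 to 7.94 CPM in the other sorts, and their part in the Hhip values was not tested.

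Within a library, the ratio of Hhip to Ptch1 counts does not depend on scaling. It was 6.07 and 3.45 in muscle, 0.874 and 0.661 in control chondroblasts, 0.458, 0.447 and 0.488 in the Notum mutant chondroblasts, and 0.498 and 1.12 in epithelium. Hhip counts thus exceeded Ptch1 counts by over 3 times in both muscle libraries and fell short of them in all 5 chondroblast libraries.

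The Gli genes encode the transcription factors at the end of the pathway. Gli1, itself a target, was at 0.958 and 0.0651 CPM in epithelium, 23.4 and 36 CPM in muscle, and 24.6 and 21.3 CPM in control chondroblasts. Its log2 difference of epithelium from the mean of the others was -5.60 (SE 1.19, edgeR adjusted p = 0.0524), outside the threshold. It passed in 4 of 8 alternative settings, and with a library left out in 2 of 6 fits, those without an epithelial library. The log2 fold changes of these 6 fits were -8.487 to -4.735. Gli2, the main activator, was at 6.23 and 0 CPM in epithelium, 49.3 and 14.5 CPM in muscle, and 53.3 and 36.7 CPM in control chondroblasts. The epithelial libraries themselves differed, with 130 Gli2 counts in the earlier library and 0 in the later one, and the difference from the mean was -3.57 (SE 1.66, edgeR adjusted p = 0.292). Without the earlier epithelial library, the one with Gli2 counts, the fit called Gli2 (adjusted p = 0.0208). Gli3, the main repressor, was at 40.4 and 17.6 CPM in epithelium, 27.8 and 67.7 CPM in muscle, and 94.9 and 108 CPM in control chondroblasts. The chondroblast libraries were above all muscle and epithelial ones, and the muscle and epithelial ranges overlapped. The Gli3 difference of chondroblasts from muscle was 1.08 (SE 0.56, edgeR adjusted p = 0.989) and of epithelium from chondroblasts -1.78 (SE 0.57, adjusted p = 0.194).

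The ratio of Gli1 to Gli3 counts in a library was 0.840 and 0.532 in muscle, 0.259 and 0.198 in control chondroblasts, and 0.0243 and 0.00555 in epithelium. These 3 ranges did not overlap, and the ratio of the later epithelial library rests on 1 Gli1 count, under the 3-count limit. The 3 Notum mutant chondroblast libraries had ratios of 0.260, 0.339 and 0.218, which overlapped with the control chondroblasts.

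Foxf1 and Foxf2 are the forkhead genes of the mesenchyme. Foxf1 was at 86.4 and 168 CPM in muscle, 12.2 and 68.6 CPM in control chondroblasts, and 0.383 and 3.32 CPM in epithelium. Muscle was above and epithelium below both chondroblast libraries, and the later chondroblast library was nearer to the lower muscle library than to the earlier chondroblast one. The Foxf1 difference of epithelium from muscle was -6.12 on the log2 scale (SE 1.31, edgeR adjusted p = 0.0640), and with a term for the date it was -6.66 (SE 0.69, adjusted p = 0.0150). Foxf2 was at 2.67 and 7.69 CPM in muscle, 2.17 and 0.896 CPM in control chondroblasts, and had 0 counts in both epithelial libraries. Set against a floor of 3 counts in each epithelial library, the mean Foxf2 level was 30.6-fold the floor in muscle and 9.06-fold in control chondroblasts. These ratios allow for counting error in epithelium only, and not for the spread between the mesenchymal libraries. In these pooled cells, fewer cells of a type and less RNA of a gene in each cell cannot be told apart.

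**Figure D2:**
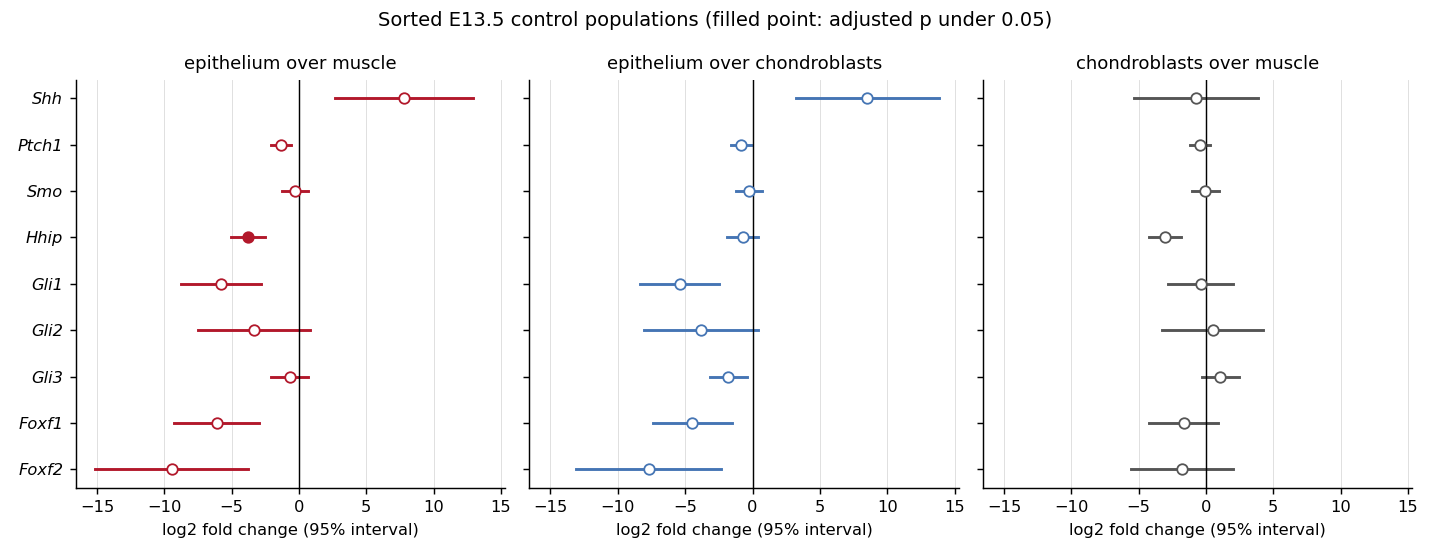
Log2 fold changes of the 9 genes (horizontal axes) between sorted E13.5 control populations, with 95% intervals as bars and filled points where the edgeR adjusted p was under 0.05. Hhip in epithelium over muscle is the only filled point, at -3.78, and the Smo intervals lie across 0 in all 3 panels.

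Over the members, 1 of 9 (Hhip) passed the adjustment for epithelium against muscle, where 3.58% of the 13687 genes tested did. For epithelium against chondroblasts 0 of 9 passed, against 2.74% of genes, although 6 had an unadjusted p under 0.05, as did 16.4% of genes. For chondroblasts against muscle 0 of 9 passed, against 0.132% of genes, and 1 had an unadjusted p under 0.05, as did 5.79%. For epithelium against the mean of both, 2 of 9 passed (Shh and Hhip), where the share of all genes was 5.14%. At the study's thresholds, an unadjusted p under 0.05 and a fold change over 1.5, the numbers were 6, 6, 1 and 7 of 9, beside 17.6%, 15.8%, 5.47% and 18.8% of genes. With DESeq2 on the same genes 6, 5, 1 and 6 members passed the adjustment, where 1827, 1554, 254 and 2035 of the 13687 genes did. A fit of all 18 libraries called 6, 6, 1 and 7 members, beside 3576, 2961, 532 and 3898 of 15331 genes. The last of these, for epithelium against the mean, is 25.4%. The sorted fit had a biological coefficient of variation of 66.8%, and 3 residual degrees of freedom. The ranges did not overlap for 7 of 9 members between epithelium and muscle, and for 8 of 9 between epithelium and chondroblasts, where 51.8% and 52.3% of all genes did not. A list of genes that respond to dissociation, which include Fos and Jun, summed to 8159 and 11479 CPM in epithelium, 4898 and 6942 CPM in muscle and 2950 and 3645 CPM in control chondroblasts, and its part in these differences was not tested. The oesophageal or basal epithelial list was at 94.5 CPM in the earlier epithelial library, the one with Gli2 counts, and at 0.586 CPM in the later. Its part in the Gli2 values was not tested.

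The other genes of the pathway came from a list of 48, of which 47 were in the table and 44 were tested in the sorted fit, members included. For epithelium against the mean of muscle and chondroblasts, 3 passed upward and 6 downward, where 2.4% and 2.75% of all genes did, with a median log2 fold change of -0.92 over the list beside -0.02 over all genes. Beyond the members, the lower genes included Osr1, a zinc finger factor gene (26.2 and 60.9 CPM in epithelium, 214 to 471 CPM in the 4 other libraries), and Boc, a co-receptor, with Scube1, a gene for release of the ligand, and Foxl1, a forkhead gene, which were named after their values were seen. Boc was lower by 3.11 (SE 0.48, edgeR adjusted p = 0.0198) and Osr1 by 2.90 (SE 0.42, edgeR adjusted p = 0.0161). The higher genes were Ccnd2, a cyclin gene, by 1.22 (SE 0.17, edgeR adjusted p = 0.0144) and Mycn, of the Myc family, by 3.65 (SE 0.74, edgeR adjusted p = 0.0447). For chondroblasts against muscle the list was evenly split, with 22 positive and 22 negative values, and 0 of 44 passed (2 of 44 had an unadjusted p under 0.05, Hhip and Ccnd1).

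Per kilobase of merged exon, which makes different genes comparable, the mean level in muscle was highest for Foxf1 (52.7 CPM per kb), Smo (48.8) and Hhip (45.4), followed by Ptch1 (11.7), Gli1 (7.31), Gli3 (5.73), Gli2 (4.80), Foxf2 (2.19) and Shh (0.0209). In control chondroblasts Smo led with 47.6 CPM per kb, Foxf1 followed with 16.7 and Gli3 with 12.2, while Hhip stood at 5.54. In epithelium Smo was again first with 39.3 CPM per kb, and Shh came second with 5.26, beside 4.53 for Ptch1 and 3.48 for Gli3. Many neighbours in these orders overlapped. In muscle the Foxf1 libraries were at 35.8 and 69.6 CPM per kb, a range that contains both values of Smo and of Hhip, and the ranges of Gli1, Gli3 and Gli2 overlapped as well. In epithelium the ranges of Shh, Ptch1, Gli3 and Hhip overlapped, and only Smo stood clear above them.

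Loss of Notum, a secreted enzyme that inactivates Wnt ligands, was examined in chondroblasts. Gli2 was at 53.3 and 36.7 CPM in the control libraries and at 63.9, 70.4 and 60.9 CPM in the Notum mutant libraries (mutants A, B and C, all of the later date). Gli1 was at 24.6 and 21.3 CPM in controls and at 28.0, 42.7 and 24.6 CPM in mutants. Ptch1 was at 63.4 and 68.3 CPM in controls and at 79.0, 94.8 and 71.8 CPM in mutants. For these 3 genes every mutant library was above both controls, although the lowest Gli1 mutant and the higher Gli1 control met at 24.6 CPM. Hhip was at 55.4 and 45.1 CPM in controls and at 36.1, 42.4 and 35.0 CPM in mutants, all below both controls. Gli3 was at 94.9 and 108 CPM in controls and at 108, 126 and 113 CPM in mutants, with the lowest mutant barely over the higher control. The ranges of 5 of the 8 members tested (Ptch1, Hhip, Gli1, Gli2 and Gli3) did not overlap, 4 of them higher in the mutants, where 33.9% of all 14120 genes tested did not overlap and 16.6% were higher.

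None of these differences passed the adjustment over all genes. Of the 8 members tested with edgeR, 0 passed the adjustment and 0 met the study's thresholds, where 0.0% and 8.41% of genes did, and 1 had an unadjusted p under 0.05, as did 12.5% of genes. That gene was Gli2, with a log2 fold change of 0.56 (SE 0.20, edgeR unadjusted p = 0.0285, adjusted p = 0.347). The log2 fold change was 0.34 for Ptch1 (SE 0.16, 95% interval -0.06 to 0.73), 0.49 for Gli1 (SE 0.28, interval -0.20 to 1.18), 0.21 for Gli3 (SE 0.13, interval -0.11 to 0.54) and -0.39 for Hhip (SE 0.18, interval -0.82 to 0.05). DESeq2 called 0 of the 8 members as well. The count at the study's thresholds was 3 (Gli2, Foxf1 and Foxf2) with a term for the date, where 4057 of 14120 genes met them. It was 1 (Gli2) with library size only, where 1343 of 14120 genes did. Without mutant B, or without mutant C, it was 0. Smo, Foxf1 and Foxf2 overlapped between the genotypes. Smo was at 187, 200 and 105 CPM in the mutants, inside the control range of 114.5 and 245 CPM save for mutant C. Foxf1 was at 22, 38.5 and 17.3 CPM in the mutants, between the controls at 12.2 and 68.6 CPM, and Foxf2 was at 3.28, 1.99 and 4.53 CPM beside 2.17 and 0.896 CPM. Shh did not pass the filter on low counts and was not tested.

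The date carried in the column names bears on this comparison, because all 3 mutant libraries carry the later date and the controls carry one each. With a term for the date, the genotype difference rests on the later control alone against the mutants. It was then 0.83 for Gli2 (SE 0.18, edgeR adjusted p = 0.0252) and -1.39 for Foxf1 (SE 0.39, edgeR adjusted p = 0.0487), in a fit where 18.4% of all genes were called. Without the earlier control library, which leaves the later control alone, the Gli2 difference was 0.84. Foxf1 turned direction with the control that was left out, from -1.39 without the earlier to 1.10 without the later one. The earlier control was also the library with the high blood and macrophage sum (37539 CPM, against 4159 to 5818 CPM in the mutants and the later control), whose part in the result was not tested. The chondroblast marker sum was 2389 and 2550 CPM in controls and 3116 to 4075 CPM in the mutants. Smooth muscle markers summed to 72.4 and 73.2 CPM in controls and 80.4 to 114 CPM in mutants, neural and glial markers to 143 and 211 CPM and 215 to 282 CPM, and epithelial markers to 31.7 and 32.8 CPM and 16.8 to 25.3 CPM. The ranges of these 3 lists did not overlap between the genotypes, and their part was not tested.

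Over the pathway list, members included, 0 of 44 genes tested passed the adjustment in the Notum mutant chondroblasts, 10 had an unadjusted p under 0.05 and 7 met the study's thresholds, all of these upward, as did 5.51% of all genes. The strongest were Ccnd1, a cyclin gene, with 363 and 248 CPM in controls and 639, 670 and 542 CPM in mutants (log2 fold change 1.04, SE 0.18, edgeR adjusted p = 0.204), and Bmp4, with 56.3 and 40.7 CPM in controls and 88.4, 99.6 and 94.0 CPM in mutants (0.98, SE 0.18, edgeR adjusted p = 0.206). Bmp4 is the gene that the labels give as floxed in part of the controls. The median log2 fold change was 0.17 over the list and 0.02 over all genes.

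**Figure D3:**
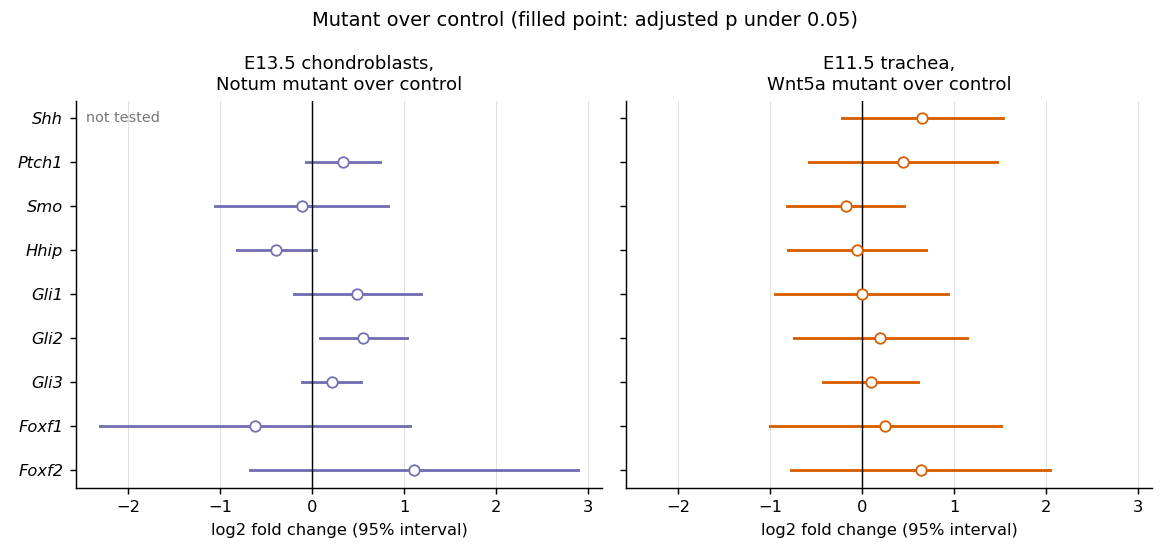
Log2 fold changes of the members (horizontal axes) in Notum mutant over control chondroblasts at E13.5 and in Dermo1Cre;Wnt5a f/f over Wnt5a f/f tracheas at E11.5, with 95% intervals. Every point is open, since no edgeR adjusted p was under 0.05, and among the intervals only that of Gli2 in the Notum panel, 0.08 to 1.03, lies clear of 0.

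Deletion of Wnt5a in the mesenchyme was examined in whole E11.5 tracheas. Shh was at 0.827, 0.852, 1.09, 1.33 and 2.36 CPM in the Wnt5a f/f libraries (columns numbered 17, 18, 16, 13 and 7) and at 2.12, 2.05, 1.64 and 2.42 CPM in the Dermo1Cre;Wnt5a f/f libraries (17, 18, 13 and 7). The lowest mutant was above every control but number 7. These are 7 to 47 counts of Shh a library. The log2 fold change was 0.65 (SE 0.40, edgeR adjusted p = 1.00, 95% interval -0.22 to 1.53). Epithelial markers summed to 274 to 441 CPM in controls and 338 to 760 CPM in mutants, with the highest sum in mutant 17, and their part in the Shh values was not tested.

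Ptch1 was at 27.4, 28.8, 30.2, 30.5 and 105 CPM in controls, numbers 18, 16, 13, 17 and 7 in that order, and at 34.4, 42.1, 53.8 and 112 CPM in mutants 17, 18, 13 and 7. Over all 9 libraries the ranges overlapped. Leaving aside number 7, a choice made after seeing the data, all 3 mutants were above all 4 controls. The share of all genes that did so is not given. The log2 fold change over all 9 libraries was 0.44 (SE 0.47, edgeR adjusted p = 1.00). With the column number as a block it was 0.43 (SE 0.17, edgeR unadjusted p = 0.0363, adjusted p = 0.957), and without the number 7 pair 0.58 (SE 0.19, edgeR unadjusted p = 0.0133, adjusted p = 0.963). With the block, 652 of 14663 genes had an unadjusted p under 0.05. Without the pair 714 of 14742 genes had one, and 515 where the block was used as well. Without control 7 alone the value was 1.04, and without mutant 7 it was -0.01. Shh and Ptch1 were each higher in the mutant of all 4 pairs with the same number, as were 6.57% of the 14663 genes tested.

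The other members did not separate the genotypes. Gli1 was at 7.93 to 22.3 CPM in controls, with a median of 12.6, and at 5.05, 10.4, 11.8 and 24.0 CPM in mutants (log2 fold change -0.01, 95% interval -0.94 to 0.93). Hhip had 34.3 to 75.3 CPM in controls and 23.6 to 71.2 CPM in mutants (-0.05, interval -0.80 to 0.70). Both are targets of the pathway, and neither followed Ptch1, the third target, in the pairs: Hhip was higher in the mutant of 1 of 4 pairs and Gli1 in 2 of 4. Gli2 was at 20.4 to 54.6 CPM in controls and 10.2 to 57.5 CPM in mutants (log2 fold change 0.20, 95% interval -0.74 to 1.14), and Gli3 at 48.7 to 76.3 CPM and 33.2 to 75.6 CPM (0.09, interval -0.42 to 0.60). Mutant 17 had the lowest Gli1, Gli2, Gli3 and Hhip values of all 9 libraries, at 5.05, 10.2, 33.2 and 23.6 CPM. The share of all genes lowest in that library is not given. Its chondroblast marker sum was the lowest of the 9 (246 CPM) and its neural and glial sum the highest (370 CPM). The part of these lists was not tested. Smo was at 60.5 to 157 CPM in controls and 66.7 to 130 CPM in mutants (-0.18, interval -0.82 to 0.46).

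Foxf1 was at 17.3, 26.9, 31.1, 56.2 and 124 CPM in the E11.5 controls numbered 16, 17, 13, 18 and 7, and at 22.2, 40.9, 66.4 and 114 CPM in mutants 13, 18, 17 and 7. Foxf2 was at 2.78, 4.89, 5.29, 5.75 and 22.7 CPM in controls 13, 17, 16, 18 and 7, and at 3.93, 9.01, 11.51 and 27.5 CPM in mutants 18, 17, 13 and 7. Both ranges overlapped, with log2 fold changes of 0.25 for Foxf1 (SE 0.57, 95% interval -1.01 to 1.5) and 0.64 for Foxf2 (SE 0.64, interval -0.77 to 2.04). Of the 9 members, 0 passed the edgeR adjustment and 0 the study's thresholds, where 0.0136% and 3.72% of genes did, 0 had an unadjusted p under 0.05 (4.58% of genes), and DESeq2 called 0. Without control 7 alone, 3 members met the study's thresholds (Shh, Ptch1 and Foxf2, with log2 fold changes of 1.00, 1.04 and 1.47), and 0 passed the adjustment. In that fit, which keeps mutant 7, 935 of 14585 genes met these thresholds. With both number 7 libraries left out, a setting chosen after seeing the data, 0 of 9 members met them, where 658 of 14742 genes did. With the column number as a block 0 of 9 passed, where 0.00682% of genes did. The ranges of 0 of 9 members were apart, as for 1.2% of genes. In the wider list 0 of 45 genes tested passed either rule, with a median log2 fold change of -0.01 beside -0.02 over all genes. A list of 3 skeletal muscle markers summed to 11.8 to 26.2 CPM in controls and 77.0 to 105 CPM in mutants, and its part in the members' levels was not tested.

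**Figure D4:**
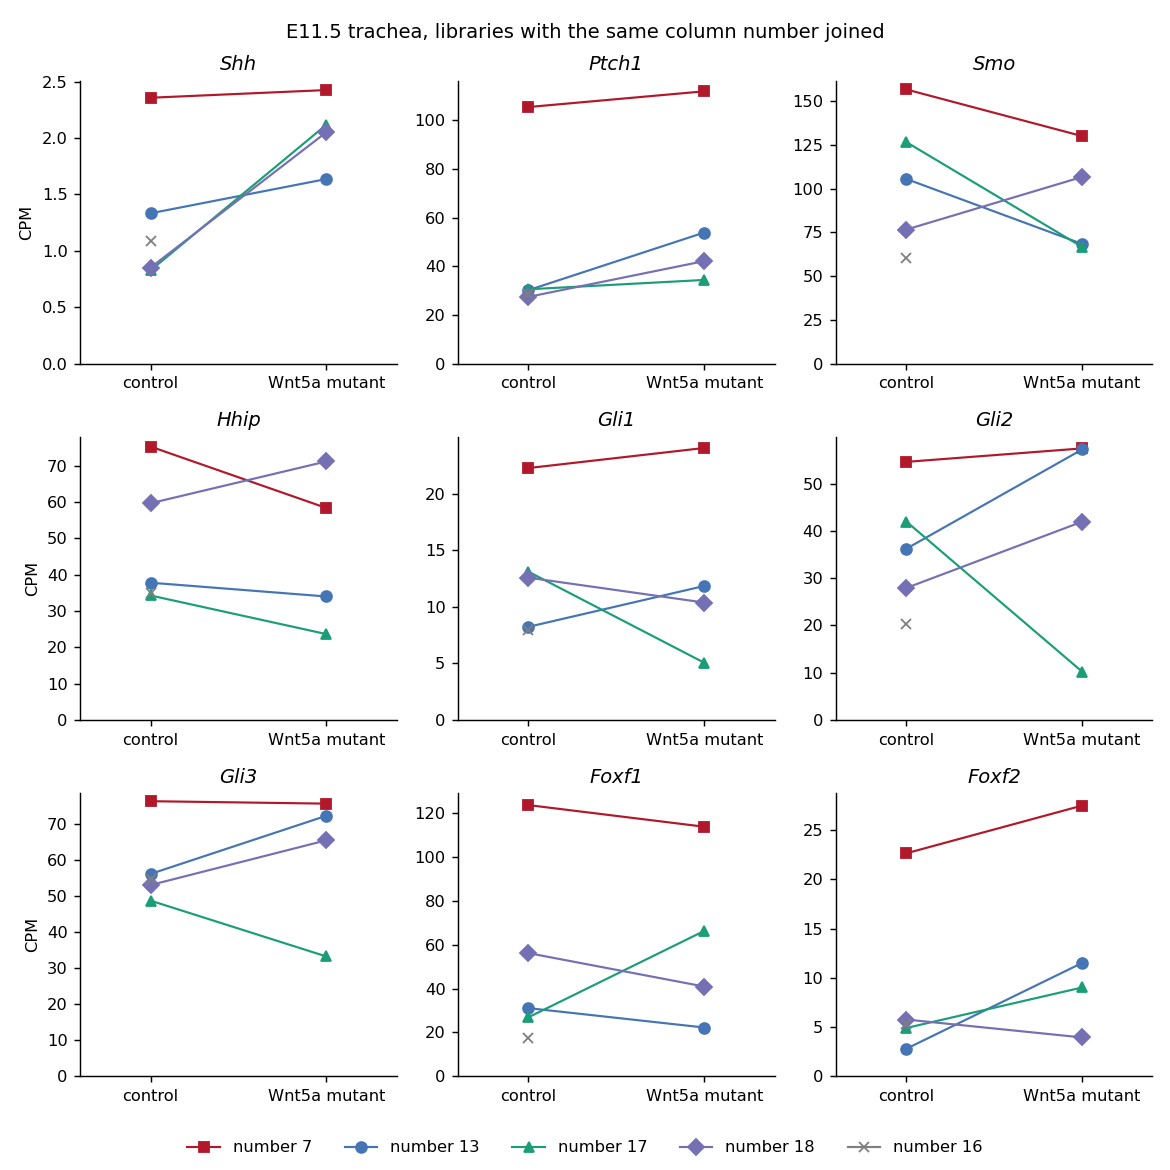
Levels of the members in CPM (vertical axes, each from 0) in control and Wnt5a mutant E11.5 tracheas, with the libraries of the same column number joined by a line and control 16, which has no mutant of its number, as a cross. Lines for Shh and Ptch1 slope upward in all 4 pairs, and the number 7 pair lies above the rest for 7 of the 9 genes.

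The number 7 pair stood apart in both genotypes. Its libraries were above the 7 others for 7 of 9 members (all but Hhip and Gli2), where 10.7% of genes were. Set against the mean of the 7 others, the pair was 3.07-fold higher for Ptch1, 3.19-fold for Foxf1, 4.07-fold for Foxf2 and 2.35-fold for Gli1, and 1.39-fold to 1.69-fold higher for Shh, Smo, Hhip, Gli2 and Gli3. Ptch1, Gli1 and the Foxf genes thus differed more between these libraries than the other 5 members, among them Hhip, a target as well. In the same pair the list of dissociation-induced genes summed to 2614 and 3326 CPM, against 116 to 384 CPM in the 7 others, and the chondroblast list to 768 and 969 CPM, against 246 to 559 CPM. The part of these lists in the members' levels was not tested. With the pair left out, 0 of 9 members passed the edgeR adjustment.

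Ratios of 2 genes within a library were compared between the genotypes at E11.5. The mean log2 ratio of Ptch1 to Smo counts was -1.40 ± 0.59 (SD, n = 5) in controls and -0.71 ± 0.53 (SD, n = 4) in mutants, a difference of 0.68 (exact 2-sided permutation test, p = 0.111, Benjamini-Hochberg adjusted over 3 ratios 0.333). That of Gli1 to Gli3 differed by -0.15 (exact permutation p = 0.714), and that of Foxf1 to Foxf2 by -0.36 (exact permutation p = 0.556). The smallest p that this unpaired test allows is 0.0159. Taken as pairs of the same number, Ptch1 to Smo was higher in the mutant of all 4 pairs, by 0.35 (number 7), 1.46 (13), 1.09 (17) and 0.14 (18), a mean of 0.76 (exact sign-flip permutation p = 0.125, the smallest that 4 pairs allow, adjusted 0.375). Gli1 to Gli3 and Foxf1 to Foxf2 were each higher in the mutant of 2 of 4 pairs. None of the 3 passed the threshold, which 4 pairs cannot reach.

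Between E11.5 and E13.5 the stage, the sort and the cell make-up changed together, so levels are described without a test. Hhip in E13.5 muscle, at a mean of 412 CPM, was 8.52-fold that of the E11.5 controls, with all muscle values above all E11.5 values. Control chondroblasts had a mean of 50.3 ± 7.30 CPM (SD, n = 2) beside 48.4 ± 18.3 CPM (SD, n = 5) in the E11.5 controls. Gli3 in control chondroblasts, at 101 ± 9.12 CPM (SD, n = 2), was above all E11.5 controls (57.8 ± 10.7 CPM, SD, n = 5). Foxf2 went the other way, with 1.54 ± 0.904 CPM (SD, n = 2) in control chondroblasts, below all E11.5 controls (8.28 ± 8.12 CPM, SD, n = 5). Shh in the unsorted E11.5 controls was at 1.29 ± 0.630 CPM (SD, n = 5), between the epithelial and the mesenchymal sorts.

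Across all 18 libraries, the genes whose log2 CPM followed Shh most closely among 10051 genes were Esrp1 (Pearson r = 0.971), Cldn7 (0.969), Cldn4 (0.968), Krt8 (0.964) and Foxa2 (0.961), of which Cldn4, Krt8 and Foxa2 are in the epithelial marker list. For Ptch1 they were Fat1 (r = 0.838), Prkcsh (0.833), Fgfr1 (0.825), Dbn1 (0.822) and Csnk1e (0.821). For Foxf1 they were Rbpms2 (r = 0.917), Prps1 (0.889), Zeb1 (0.884), Nnat (0.883) and Fendrr (0.873). The points share sort, stage and depth, so these values are descriptions. Fendrr is a long non-coding RNA gene whose span (chr8:121054882-121083110, GRCm38.p6) lies 1275 bases from that of Foxf1. It was at 47.7 and 27.4 CPM in muscle, at 8.70 and 5.15 CPM in control chondroblasts and at 0.0479 and 0 CPM in epithelium, and at 39.7 and 43.4 CPM in the number 7 pair against 6.95 to 24.0 CPM in the other E11.5 libraries. Among the E13.5 control sorts, muscle was thus highest and epithelium lowest for both neighbours. Fendrr was named for its correlation with Foxf1 over these same libraries. Among the members themselves, Gli1 and Gli2 followed each other most closely (r = 0.903 over 18 libraries), then Foxf1 and Foxf2 (0.791), while Shh and Gli1 ran opposite (r = -0.817).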

How the data were processed

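RNA-seq was carried out on poly(A) RNA amplified with SMART-Seq v4, with Nextera XT libraries, from E11.5 trachea and from cells sorted at E13.5. The authors deposited a table of expected counts per gene entry (54.1% of the values are not whole numbers) with 47248 entries and 22 columns. The submitters' processing notes name Partek, limma and mm10. The aligner and the counting step are not given in the sources used here, nor whether strand was used. Of the columns, 18 were tied by name to a group and used, and 4 matched no sample and were not used. For E13.5, 9 of the 13 samples listed had a column. A pair of column names lacks the sign of the GFP gate (the earlier epithelial library and Notum mutant C), and they were grouped by the rest of the name. Sorted libraries carry an earlier or a later date in their names, and E11.5 libraries a number. Libraries whose separate origin is stated only as different samples may be technical repeats in part, and p-values measure the spread between them.

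Counts were summed by symbol (26202 symbols, 9286 with several entries, 0 blank) and rounded. edgeR (version 4.0.16, R 4.3.3) was fitted with TMM scaling and quasi-likelihood F tests on genes with at least 1 CPM in over 50% of the libraries of a group, 2-sided, with Benjamini-Hochberg adjustment over all genes tested and a threshold of 0.05. The study's thresholds were an unadjusted p under 0.05 and a fold change over 1.5. The 3 sorted control populations shared 1 fit, and the Notum and Wnt5a comparisons had their own. SE is the log2 fold change divided by the root of F. Levels per kb used merged exon lengths of GENCODE vM21. DESeq2 (1.42.0), limma voom (3.58.1), other scalings, other filters, a fit of 18 libraries, date or number terms and leaving out each library were the alternatives. The scripts were tested on simulated data.

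Named were all 9 members, the targeted genes, up to 3 other pathway genes per direction past the adjustment (otherwise up to 2 with the smallest p at the study's thresholds), and the 5 genes most correlated with Shh, Ptch1 and Foxf1 (log2 CPM with a prior count of 2, mean of at least 10 CPM). Of the genes this rule names, 1 is not reported here. The members and lists were chosen with earlier results of these data known. The E11.5 numbers pair the samples by the rule used here: deviations from the group means correlated between control and mutant of the same number in all 4 pairs (r = 0.192 for 13, 0.529 for 7, 0.101 for 18 and 0.138 for 17), the weakest of them near the limit of 0.1, and control 16 has no mutant of its number. Mutant 17 correlated more with control 16 (r = 0.218) than with control 17. The pairing comes from the column names and the data, not from the labels. Depth was 6880660 to 21678177 counts a library. Intervals and floors of single counts cover counting error only, since reads carry no molecular identifiers.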

Additional observations from a re-analysis of the deposited data

Results flagged for a closer look

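Of 18 tests for a sample apart from its group (9 members in the E11.5 controls and in the Dermo1Cre;Wnt5a f/f libraries), 3 pointed to control 7. The 9 members of a library are not independent, so that no chance rate is set beside these 3. Both number 7 libraries were above the 7 others for 10.7% of all genes. Ptch1 was at 105.3 CPM there, beside 30.54 CPM in the next control, a gap of 0.960 of the whole range. Foxf2 was at 22.66 CPM beside 5.753 CPM (0.851 of the range), and Gli3 at 76.26 CPM beside 56.09 CPM (0.731 of the range), against a critical value of 0.710 for 5 samples. The 3 flags concern 1 library. Mutant 7 had the highest Ptch1, Gli3 and Foxf2 values of the mutants, without passing the same test in that group of 4. Sums of dissociation-induced genes were 2614 CPM in control 7 and 183 to 384 CPM in the other controls, and their part was not tested.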

How the results depend on the processing

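Each library was left out in turn, and other tools, scalings, filters and terms were tried. All 54 group means of the members stayed within the spread between libraries under library size alone. The number of members passing the adjustment for epithelium against muscle was 1, and 6 with DESeq2, 6 without the filter, 6 with 18 libraries in 1 fit, 2 with the date as a block and 0 to 3 with a library left out. For epithelium against chondroblasts it was 0, and 5, 5, 6, 1 and 0 to 2 in the same order. For chondroblasts against muscle it was 0, and 1 with DESeq2, 2 without the filter, 1 with voom, 1 with 18 libraries and 0 to 1 with a library left out. For epithelium against the mean it was 2, and 6, 7, 7, 1 and 0 to 4 in the first order. For Notum mutants it was 0, and 2 with the date term and 0 to 1 with a library left out, and for Wnt5a mutants it was 0 in every alternative run. Over all genes the calls for these comparisons went from 490 to 1827 (DESeq2), 1620 (no filter) and 3576 (18 libraries), from 375 to 1554, 1463 and 2961, from 18 to 254, 305 and 532 (33 with voom), and from 704 to 2035, 1928 and 3898. They went from 0 to 526 with DESeq2, 42 without the filter, 5 with voom, 9 with 18 libraries and 2604 with the date term for Notum mutants, and from 2 to 40 with DESeq2, 9 without the filter, 0 with 18 libraries and 1 with the replicate block for Wnt5a mutants. The cause was not tested.

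Directions turned for small differences. With a library left out they also turned for larger ones, such as Foxf1 in Notum mutants and Shh for chondroblasts against muscle. Smo in Notum mutants was 0.000885 with voom. In Wnt5a mutants, Hhip was 0.0134 with library size only and 0.0435 without the number 7 libraries, an alternative chosen after seeing the data, Gli1 was 0.0463 with library size only and 0.0119 without the filter, and Gli2 was -0.058 with voom. With the replicate block, Gli2 was -0.118, and -0.194 without the number 7 libraries, also chosen after seeing the data, and the block changed no member's call at E11.5. Pairs of the same number gave -0.279, 0.762 and -0.602 for the ratios of Gli1 to Gli3, Ptch1 to Smo and Foxf1 to Foxf2, also chosen after seeing the data. With a library left out, log2 fold changes ranged, in Notum mutants, from -1.39 to 1.10 for Foxf1 and -0.567 to 0.529 for Smo. In Wnt5a mutants they ranged from -0.209 to 0.875 for Foxf1, -0.485 to 0.275 for Gli1, -0.00645 to 0.293 for Gli3, -0.326 to 0.164 for Hhip, -0.0104 to 1.04 for Ptch1 and -0.364 to 0.00235 for Smo. For chondroblasts against muscle they ranged from -0.146 to 1.62 for Gli2, -3.25 to 2.46 for Shh and -0.709 to 0.394 for Smo. Epithelium differed from muscle by -1.45 to 0.0781 for Gli3 and -0.741 to 0.0175 for Smo, from chondroblasts by -0.697 to 0.406 for Smo, and from the mean by -0.715 to 0.0516 for Smo. The ratio of Foxf1 to Foxf2 ranged from -0.711 to 0.0971.

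The sorted control columns carry no replicate numbers, and their dates served as the block. With the date as a block, Shh and Hhip lost their calls against the mean (adjusted p = 0.0817 and 0.0692), and Foxf1 was called against muscle, chondroblasts and the mean (adjusted p = 0.0150, 0.0377 and 0.0150, edgeR).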
